A study of Mus musculus with 9 samples.

Results

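The protein synthesis machinery examined here consisted of 76 genes of the mouse stromal arrays: 52 initiation and elongation factors with their regulators, and 24 aminoacyl-tRNA synthetases. A gene belonged to the first group when its symbol in the platform annotation began with Eif1 to Eif6, Eef1 or Eef2, and to the second when it had the form of a synthetase symbol such as Qars or Tars2, so the rule itself uses names and no measured value. The factors were represented by 120 spotted cDNA clones and the synthetases by 34, out of 8146 genes with a symbol of their own on the array, of which 8106 could be tested. Clones of the same gene were averaged on each array, and 8 clones whose annotation named a member together with another gene were left out.

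Stroma was cut by laser from prostates of CR2-TAg mice, FVB males that carry SV40 large T antigen under cryptidin-2 regulatory elements, which direct it to prostatic neuroendocrine cells; all animals of both groups carried this transgene. The arrays covered stroma around invasive cancer from 6 mice aged 24 weeks and stroma around prostatic intraepithelial neoplasia (PIN), the stage before invasion, from 3 mice aged 10 weeks (replicates 2, 3 and 4); the array of the remaining PIN mouse was not analysed here. Age and stage changed together and cannot be told apart. Both stromas were cut from the edge of the epithelium outwards, up to a greater distance in invasive than in PIN tissue. Each value is the log2 ratio of the sample, labelled with Cy5, over a Cy3-labelled pool of the PIN samples, so that 1 unit is a 2-fold change, and each PIN mouse had contributed to the pool it was compared with.

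Translation starts when eIF2 brings the initiator tRNA to the small ribosomal subunit and the cap-binding eIF4 factors and the eIF3 complex place that subunit on the mRNA. eIF2B recharges eIF2 with GTP, and stress-activated kinases block that step by phosphorylating eIF2, which lowers overall initiation while favouring the transcription factor ATF4. The elongation factor eEF1A then delivers aminoacyl-tRNAs, which the synthetases make by joining each amino acid to its tRNA, and eEF2 moves the ribosome along the message. Fibroblasts that deposit matrix and tumor cells that divide both depend on this machinery, and several cytosolic synthetase genes are known targets of ATF4.

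The sequence element through which ATF4 acts with C/EBP partners on amino acid-responsive genes has the core TGATGCAA, read TTGCATCA on the other strand. It was searched on both strands in RefSeq promoter windows, from 250 bases before to 50 bases after each annotated start (build GRCm38.p6), which were at hand for 57 of the 76 members. The core occurred in 4 of 17 synthetase genes (23.5%) and in 0 of 40 factor genes, against 279 of 27025 genes with a window (1.03%). All of these synthetases were cytosolic enzymes (4 of 9 with a window, 44.4%), and none of the 8 mitochondrial ones had the core. The matching stretches of 3 of these genes are shown because they are a feature shared by some members that their selection did not use; capitals mark the core, and each is written 5′ to 3′ on the strand of its gene.
Iars, isoleucyl-tRNA synthetase, chr13:49682126-49682155, plus strand: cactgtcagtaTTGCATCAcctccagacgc
Tars, threonyl-tRNA synthetase, chr15:11399655-11399684, minus strand: caggagtcccgTTGCATCAgctggttagct
Yars, tyrosyl-tRNA synthetase, chr4:129189895-129189924, plus strand: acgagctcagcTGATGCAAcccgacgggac
The core began upstream of the annotated start, which is position 1, in Tars (position -15), and just inside the transcribed part in Iars (position 8) and Yars (position 4). A match of 8 letters describes the window and is not evidence that a factor bound there.

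Each array held 17189 to 17206 values, and the correlation over all clones was 0.256 to 0.769 between invasive arrays, 0.176 to 0.672 between PIN arrays and 0.218 to 0.529 across the groups. PIN replicate 4 stood apart, with correlations of 0.176 and 0.189 with the other PIN arrays. Between the groups, limma called 457 of 8106 genes (5.64%) with the threshold of the study, a false discovery rate of 15% (adjusted p under 0.15), of which 304 (3.75%) were higher and 153 (1.89%) lower in invasive stroma. Markers of several cell types moved with the groups. Here 4 of 4 measured macrophage markers and 3 of 8 fibroblast markers passed as higher, and 2 of 3 smooth muscle markers, Myh11 and Myl9, passed as lower. Also passing as higher were 5 of 10 markers of cycling cells (median difference 1.15), 2 of 5 endothelial markers (1.28) and 1 of 4 neuroendocrine markers, Foxa2 (median of the 4, 1.95). None of the 6 epithelial and 2 skeletal muscle markers measured passed in either direction. The array median of the smooth muscle markers ran from -4.00 to -0.53 in invasive stroma and from -0.58 to 0.40 in PIN stroma. Invasive replicate 3 differed from the other invasive arrays. Its median was 0.80 for macrophage markers (others 2.63 to 2.98), 0.18 for fibroblast markers (1.08 to 1.35) and 0.34 for endothelial markers (1.23 to 1.74). Its median of cycling-cell markers, 2.06, was the highest. In such pieces of tissue, fewer cells of a type and less RNA per cell cannot be told apart, and the part of the changing cell mixture in the values given for the members was not tested.

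Among the translation factors, a single gene passed the test between the stages. None of the 52 passed as higher in invasive stroma and 1, Eef2k, passed as lower, against 3.75% and 1.89% of all genes tested. At an adjusted p under 0.05, which 0.938% of all genes reached, there was no member. At an unadjusted p under 0.05 there were 5 factors, 2 higher (Eif1b and Eef1e1) and 3 lower (Eef2k, Eif1ax and Eef1d), where 15.0% of all genes reached that level, 9.18% higher and 5.8% lower. The median difference of the factors, invasive minus PIN, was -0.039, with 24 positive and 28 negative values, and that of all genes was 0.017. The median size of a factor's difference without regard to sign, 0.225, was close to the 0.227 of all genes. Invasive and PIN arrays did not overlap for 2 factors, Eef2k and Eif1ax, both lower, while 2.99% of all genes had every invasive array below every PIN array and 4.86% had every one above.

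None of the 24 synthetases passed in either direction. Wars, Qars and Kars had an unadjusted p under 0.05, all 3 with lower values in invasive stroma, where 5.8% of all genes were lower at that level. The median difference was -0.14 with 11 positive and 13 negative values. It was -0.033 without PIN replicate 4, the array that stood apart, while the median of all genes went from 0.017 to 0.046. The groups did not overlap for 1 of the 24 synthetases, Qars, which was lower, where 2.99% of all genes had every invasive array below every PIN array.

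A missing call was informative only as far as the intervals of the differences reached. The 95% confidence interval stayed within 1 log2 unit of 0, hence within a 2-fold change of the array ratio either way, for 47 of the 52 factors and 20 of the 24 synthetases, or 67 of 76 members (88.2%), and for 73.0% of all genes. The exceptions were Eef2k, Eif1ax, Eif1b, Eef1d and Eif4ebp1 among the factors and Wars, Qars, Kars and Cars among the synthetases. For the other members a change of the array ratio beyond 2-fold lay outside the interval, while smaller ones lay within it and could be missed. The array ratio can fall short of the change in RNA. For several other genes the paper's RT-PCR, on other animals, gave larger fold changes than its array. The median half-width of the interval was 0.49 for factors and 0.51 for synthetases.

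**Figure D1:**
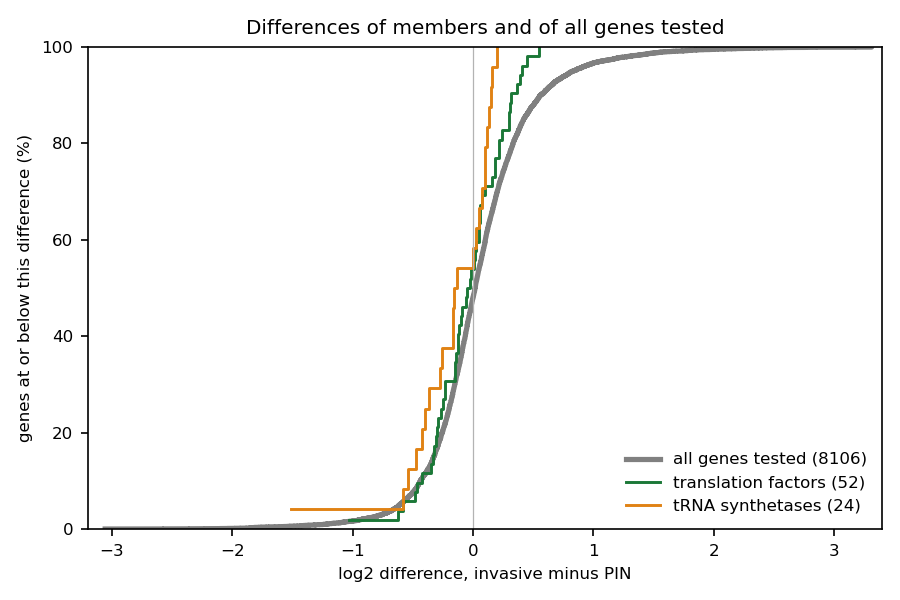
Cumulative share of genes (vertical axis, %) at or below each log2 difference, invasive minus PIN (horizontal axis), for 52 translation factors, 24 tRNA synthetases and all 8106 genes tested. The factors follow the curve of all genes near 0 and stop at 0.55 on the right, and the synthetase curve stops at 0.20 on the right while the single gene Wars reaches -1.52 on the left.

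The elongation step held the only member that passed. Eef2k encodes the calcium- and calmodulin-dependent kinase that phosphorylates eEF2 and thereby slows the movement of ribosomes. Its log2 ratio over the PIN pool was 0.08, 0.33 and -0.19 in PIN replicates 2, 3 and 4, and in invasive stroma the lowest, median and highest values were -1.46, -0.996 and -0.31. Every invasive array lay below every PIN array, with invasive replicate 1 the closest to them. Eef2k thus fell by 1.03 ± 0.25 (SE, 6 against 3 arrays), which is 2.04-fold lower, with an adjusted p of 0.0665 from limma and a 95% interval of -1.57 to -0.49. The call was lost without PIN replicate 2 (difference -1.03, adjusted p = 0.249 from limma) or PIN replicate 3 (-0.90, adjusted p = 0.258 from limma), and with equal variances per gene and no sharing of the spread between genes (adjusted p = 0.203). A clone of Eef2k was also in the list that the study selected on these same samples, so its direction there is not independent evidence.

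Both Eef2k clones on the array were lower in invasive stroma. The first gave 0.15, 0.25 and -0.39 in the PIN replicates and -1.58, -1.20 and -0.50 as lowest, median and highest invasive value, a fall of 1.19 ± 0.27 (adjusted p = 0.089 from limma over all clones). The second gave 0.01, 0.42 and 0.02 against -1.35, -0.66 and -0.12, a difference of -0.87 ± 0.28 (adjusted p = 0.205 from limma). For either clone the groups did not overlap. Among single clones, limma called 1 of the 154 member clones, the first of Eef2k, where 2.16% of all clones passed.

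The substrate of that kinase did not pass. Eef2 was at -0.21, 0.10 and 0.18 in PIN stroma and at -0.51, -0.23 and 0.13 (lowest, median, highest) in invasive stroma, with a difference of -0.23 ± 0.20 (adjusted p = 0.656 from limma) and groups that overlapped. Of its 5 clones 4 had negative differences, and the clones ranged from -0.43 to 0.43. Eef2kmt, the methyltransferase of eEF2, differed by -0.35 ± 0.29 (adjusted p = 0.643 from limma), with a wide invasive range of -0.94 to 0.60.

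**Figure D2:**
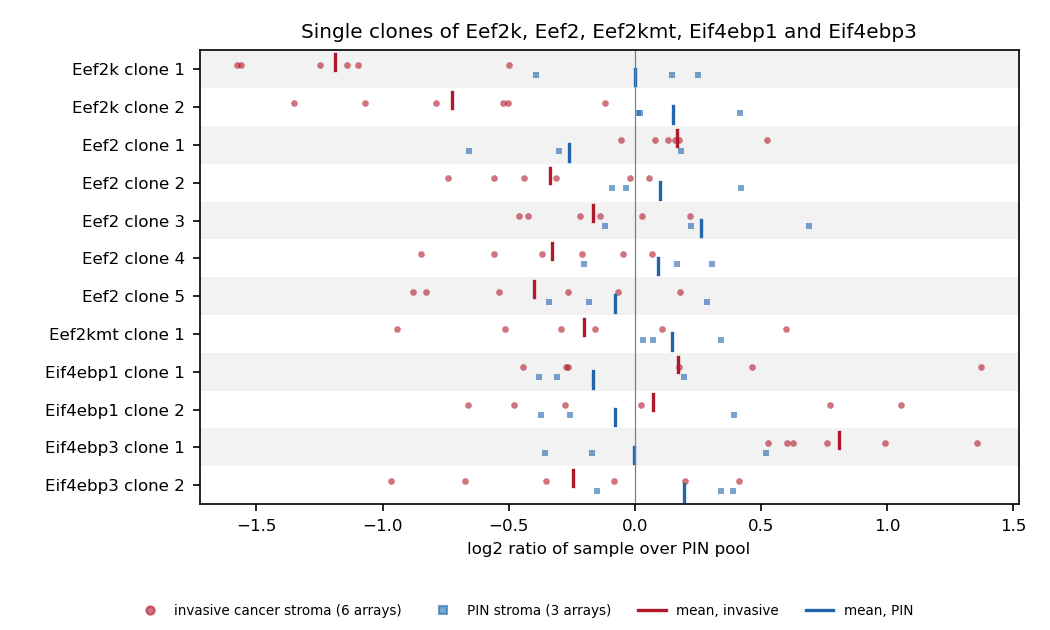
Log2 ratio to the PIN pool on the horizontal axis for each single clone of Eef2k, Eef2, Eef2kmt, Eif4ebp1 and Eif4ebp3; circles are the 6 invasive arrays, squares the 3 PIN arrays and vertical ticks the group means. Both Eef2k clones have all invasive arrays below all PIN arrays, whereas the pair of Eif4ebp3 clones differ in opposite directions, by 0.81 and -0.44.

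The eEF1 genes split in direction and none passed. Eef1d, a guanine nucleotide exchange subunit that reloads eEF1A, was at 0.17, 0.12 and -0.33 in PIN stroma and at -0.997, -0.77 and -0.13 in invasive stroma, a difference of -0.62 ± 0.25 (adjusted p = 0.245 from limma). Invasive replicates 1 and 5 overlapped the PIN arrays, and the other 4 were lower than all of them. Eef1e1, which in spite of its name is a scaffold protein of the multi-synthetase complex, went the other way, at -0.08, -0.36 and 0.26 in PIN stroma and 0.23, 0.39 and 0.54 in invasive stroma. Its difference was 0.45 ± 0.19 (adjusted p = 0.286 from limma), and PIN replicate 4 alone reached into the invasive range. Eef1a1, the tRNA carrier itself, differed by -0.14 ± 0.21, with 8 of its 10 clones negative, and Eef1g by -0.10 ± 0.23, with 6 of 7 clones negative. Eef1b2, the other exchange subunit measured, differed by 0.30 ± 0.26.

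Among the 13 genes grouped as initiator and start codon factors the differences ran from -0.58 to 0.55, with 7 positive and 6 negative. The grouping went by symbol and took in Eif5a (0.006) and Eif5a2 (0.32), whose role in that step is not implied. The lowest was that of Eif1ax, the X-linked gene of eIF1A, which helps the small subunit scan for the start codon. It was at -0.32, -0.30 and 0.24 in PIN stroma and -1.21, -0.69 and -0.44 in invasive stroma, so the groups did not overlap, yet the difference of -0.58 ± 0.22 did not pass (adjusted p = 0.226 from limma) and was -0.40 without PIN replicate 4. Its 2 clones gave -0.55 and -0.62. The related gene Eif1a differed by 0.30 ± 0.24; cDNA clones of such close relatives may cross-hybridise, which was not tested.

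Eif1b, a relative of the start codon fidelity factor eIF1, had the highest difference of all 76 members, 0.55 ± 0.21 (adjusted p = 0.241 from limma). It was at 0.16, 0.19 and -0.28 in PIN stroma and at 0.14, 0.62 and 0.94 in invasive stroma, and only invasive replicate 1 fell within the PIN range. The measured subunits of eIF2 itself hardly differed, with Eif2s2 at 0.02 ± 0.18, Eif2s3x at -0.03 ± 0.21 and its Y-linked copy Eif2s3y at -0.13 ± 0.19. Eif2s1, the gene of the alpha subunit, was not among the members, so these values do not cover the whole of eIF2.

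The 5 eIF2B subunits had a median difference of -0.31 and none passed. Eif2b4, a regulatory subunit, differed by -0.46 ± 0.24 (adjusted p = 0.406 from limma); PIN values of -0.05, -0.57 and 0.48 overlapped the invasive range of -0.76 to -0.08, and the difference was -0.20 without PIN replicate 4. Eif2b3, part of the catalytic core, differed by -0.31 ± 0.19 (adjusted p = 0.482 from limma), with invasive values of -0.49, -0.37 and -0.16 against 0.10, 0.17 and -0.35 in PIN stroma. For the latter it was PIN replicate 4 that overlapped the invasive arrays, and without it the difference was -0.47.

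The measured eIF2 kinases did not pass either. Eif2ak1, the heme-regulated kinase, differed by 0.30 ± 0.23 (adjusted p = 0.604 from limma), with PIN values of 0.21, -0.30 and 0.08; 5 invasive arrays lay between 0.28 and 0.65 and invasive replicate 6 at -0.32. Eif2ak4, the kinase GCN2 that senses uncharged tRNA, differed by -0.25 ± 0.26 (adjusted p = 0.739 from limma), a value that rested on 0.85 in PIN replicate 3 and became 0.016 without that array.

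Of the 12 eIF3 subunits 8 had negative and 4 positive differences, with a median of -0.10 and none past the threshold. Eif3i gave -0.48 ± 0.23 (adjusted p = 0.35 from limma). Its 6 invasive arrays were tightly grouped at -0.72, -0.49 and -0.27, but PIN replicate 3 lay among them at -0.37, PIN replicate 2 just above them at -0.25, and PIN replicate 4 was high at 0.61; without it the difference was -0.17. Eif3l gave -0.42 ± 0.22 (adjusted p = 0.408 from limma), with 0.24, -0.25 and 0.56 in PIN stroma and -0.61 to 0.12 in invasive stroma. Eif3c was the highest of the complex at 0.41 ± 0.22 (adjusted p = 0.417 from limma), although both groups lay mostly below the pool, PIN stroma at -0.56, -0.30 and -0.99 and invasive stroma at -0.53 to 0.12. Eif3a, the large scaffold subunit with 9 clones, differed by -0.12 ± 0.25, with 7 clones negative.

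The 8 cap-binding and helicase factors gave 6 positive and 2 negative differences with a median of 0.05. Eif4a1, the RNA helicase that unwinds the leader of the message, was at 0.19, -0.04 and -0.20 in PIN stroma and at 0.18, 0.43 and 0.55 in invasive stroma. All 4 of its clones had positive differences, from 0.19 to 0.59, but the mean of 0.39 ± 0.18 did not pass (adjusted p = 0.335 from limma), and the lowest invasive arrays touched PIN replicate 2. Its relative Eif4a2 differed by -0.05 ± 0.34. The cap-binding protein itself, Eif4e, differed by 0.05 ± 0.18, with a 95% interval of -0.34 to 0.44, and Eif4e3, an atypical member of that family, by 0.36 ± 0.23 (adjusted p = 0.516 from limma).

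The proteins that hold eIF4E back showed no call. Eif4ebp1 was among the most variable members in invasive stroma, where replicates 5 and 6 were at 1.21 and 0.62 and the other 4 between -0.46 and -0.12, against PIN values of -0.38, -0.28 and 0.29; its difference was 0.24 ± 0.35 (adjusted p = 0.819 from limma). The same arrays were high in both of its clones. Eif4ebp3 was the only member whose clones disagreed by more than 1 log2 unit, at 0.81 ± 0.26 (adjusted p = 0.218 from limma over all clones) and -0.44 ± 0.31, so the mean of 0.19 ± 0.24 describes neither. Eif6, which keeps the large ribosomal subunit from joining too early, differed by -0.27 ± 0.19 (adjusted p = 0.568 from limma), with PIN values of 0.24, 0.14 and 0.20 inside the invasive range of -0.48 to 0.23 apart from the first.

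**Figure D3:**
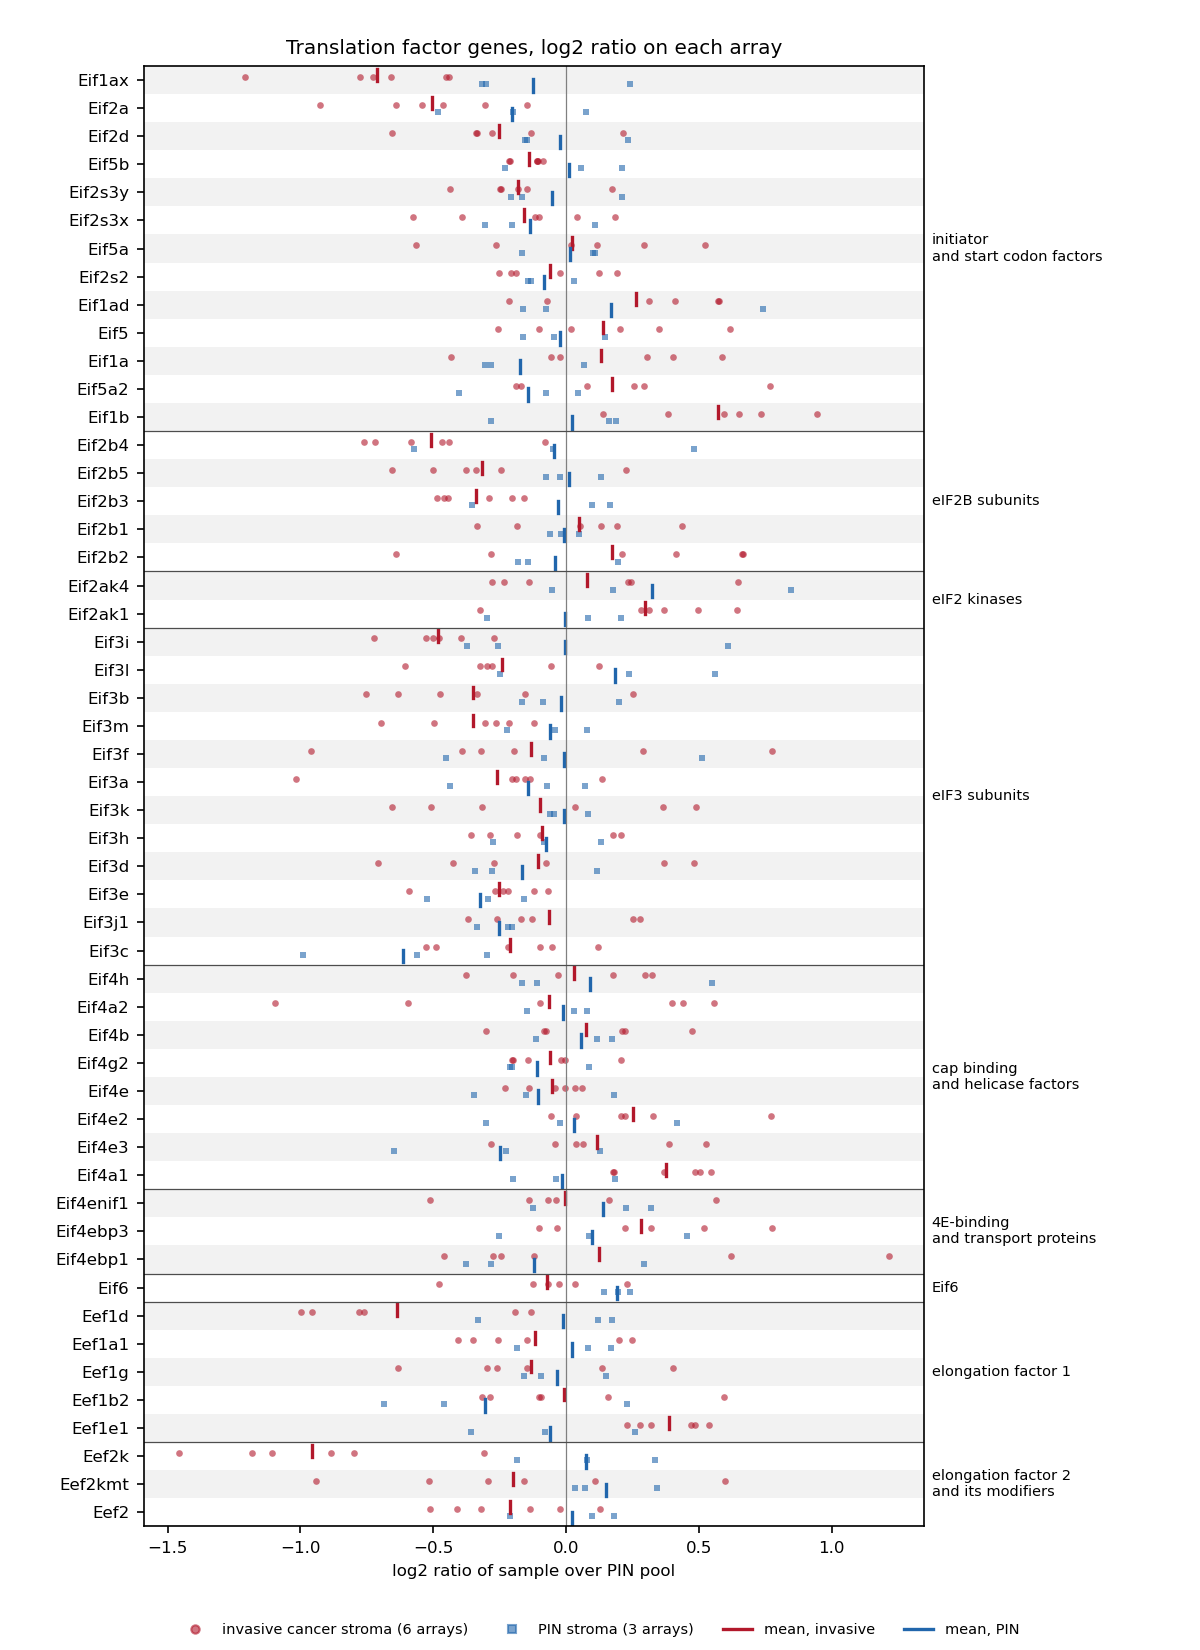
Log2 ratio to the PIN pool on the horizontal axis for the 52 translation factor genes, in blocks by role and ordered by difference within a block; circles are the 6 invasive arrays, squares the 3 PIN arrays and vertical ticks the group means. Only Eef2k and Eif1ax have every invasive array below every PIN array, and no factor has every invasive array above them.

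Among the 15 cytosolic synthetases, 8 differences were positive and 7 negative, and the 5 largest in size were negative (Wars, Qars, Kars, Cars and Yars). Wars, tryptophanyl-tRNA synthetase, which is known to be induced by interferon, had the largest difference of the 76 members, -1.52 ± 0.60 (adjusted p = 0.245 from limma, 95% interval -2.81 to -0.22). Its invasive values were -2.63, -2.12 and -1.51, but PIN replicates 2 and 3 were within that range at -1.80 and -1.58 and PIN replicate 4 stood at 1.62. The groups therefore overlapped, and the difference was -0.41 without PIN replicate 4. The low values on 8 of 9 arrays were measured against a pool that contained the RNA of PIN replicate 4. The part of the pool in these values was not tested.

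Qars, glutaminyl-tRNA synthetase, was at -0.11, -0.00 and 0.56 in PIN stroma and at -0.74, -0.39 and -0.15 in invasive stroma, without overlap but with PIN replicate 2 close to the highest invasive array. The difference of -0.58 ± 0.21 did not pass (adjusted p = 0.217 from limma), its 2 clones gave -0.61 and -0.55, and without PIN replicate 4 it was -0.38. For the second clone the groups overlapped, with PIN replicate 2 at -0.22 and the highest invasive value at -0.16. Kars, lysyl-tRNA synthetase, which serves both cytosol and mitochondria from 1 gene, is described because of its unadjusted p and so was picked after its values were seen. Its PIN arrays were close together at 0.13, -0.02 and 0.02, and its invasive values were -0.92, -0.55 and -0.02. The difference was -0.54 ± 0.22 (adjusted p = 0.262 from limma), it was -0.55 without PIN replicate 4, and it passed without invasive replicate 3 (-0.63, adjusted p = 0.103 from limma), the array on which Kars was closest to PIN. Without that array the number of all genes called also rose, from 457 to 896.

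The 3 synthetases whose ATF4-type core is shown did not move together. Iars differed by 0.05 ± 0.33, Tars by 0.16 ± 0.26 and Yars by -0.37 ± 0.24, and none passed with limma. Within PIN stroma each was highest on replicate 4, as were 9 of the 15 cytosolic synthetases (60.0%) and 41.7% of all genes. Iars was at -0.66, -0.23 and 0.79, and Tars at -0.41, -0.31 and 0.17. Yars was highest on replicate 4 by a small margin, at -0.00, 0.03 and 0.09.

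The 9 mitochondrial synthetases ranged from -0.42 to 0.13, with 3 positive and 6 negative differences and a median of -0.16. Tars2, the mitochondrial threonyl enzyme, had the largest, -0.42 ± 0.20 (adjusted p = 0.343 from limma), with 0.24, -0.02 and -0.13 in PIN stroma and -0.68, -0.35 and -0.12 in invasive stroma. Ears2, the mitochondrial glutamyl enzyme, differed by -0.27 ± 0.18 (adjusted p = 0.516 from limma), with 5 invasive arrays between -0.35 and -0.21 and invasive replicate 5 at 0.05. In either gene invasive replicate 5 was the only invasive array within the PIN range.

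**Figure D4:**
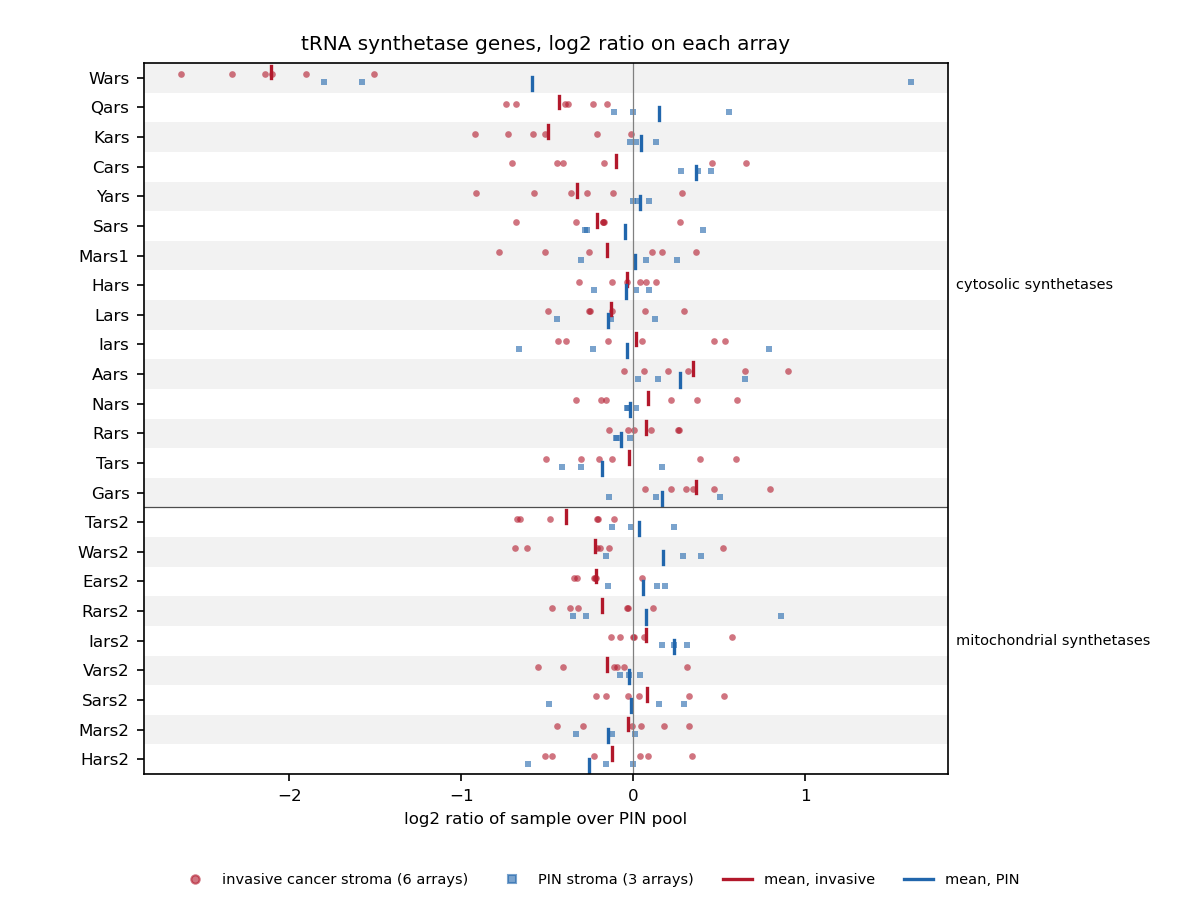
Log2 ratio to the PIN pool on the horizontal axis for the 24 tRNA synthetase genes, cytosolic above and mitochondrial below; circles are the 6 invasive arrays, squares the 3 PIN arrays and vertical ticks the group means. Wars is low on the 6 invasive arrays and on PIN replicates 2 and 3 (-1.80 and -1.58) and high on PIN replicate 4 (1.62), and Qars alone has no overlap between the groups.

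PIN replicate 4 was the highest of the PIN arrays for 9 of the 15 cytosolic synthetases (60.0%), 2 of the 9 mitochondrial synthetases and 21 of the 52 factors (40.4%), where 41.7% of all genes were highest on it. Of 16 measured genes of the integrated stress response, 12 were highest on that array among the PIN arrays and 4 were not, Atf4 itself (-0.37, -0.04 and -0.20 in replicates 2, 3 and 4), Slc7a5, Slc3a2 and Ppp1r15b. Their median was -0.34, -0.22 and 0.68 in that order, with Asns, asparagine synthetase, at -1.13, -0.85 and 1.02 and Psat1, an enzyme of serine synthesis, at -2.12, -1.75 and 1.48. Epithelial markers were high on it as well, with a median of -1.10, -1.42 and 0.74 over the 6 of 10 listed markers that were measured; Krt18, a keratin of luminal cells, was at -1.32, -2.39 and 0.65 and Epcam at -1.57, -2.44 and 1.43. Of 10 markers of cycling cells, 9 were highest on that array among the PIN arrays, with a median of -0.27, -0.24 and 0.30. The part of the epithelial and cycling-cell transcripts in the values of Wars, Qars and the other synthetases on that array was not tested. By array, the median of the factors ran only from -0.20 to 0.06 and that of the synthetases from -0.23 to 0.14, the top value in either case on PIN replicate 4.

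**Figure D5:**
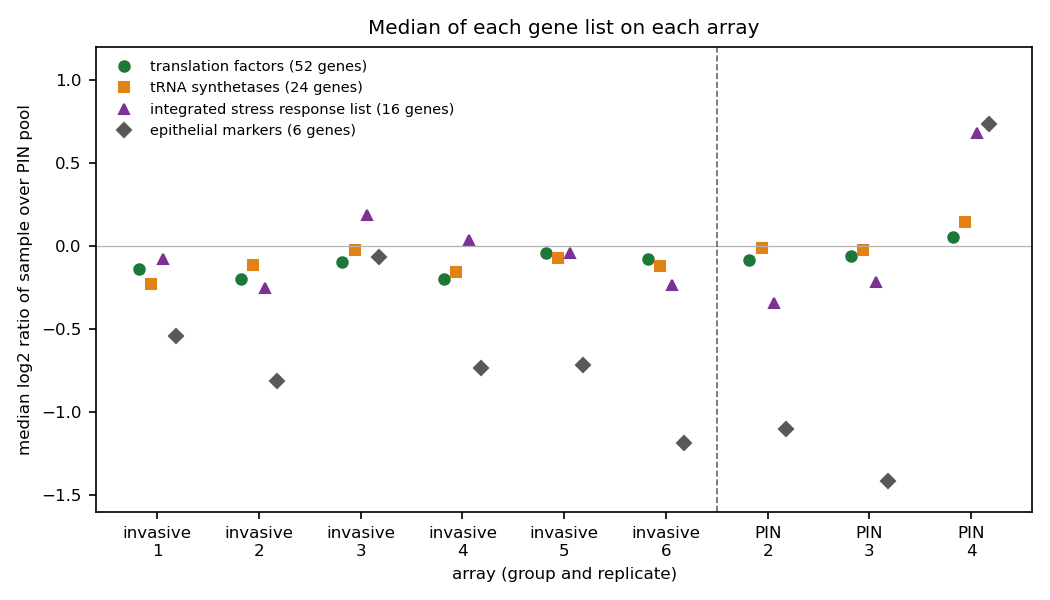
Median log2 ratio over the PIN pool (vertical axis) on each of the 9 arrays (horizontal axis) for 52 translation factors, 24 tRNA synthetases, 16 integrated stress response genes and 6 epithelial markers. Factors and synthetases stay between -0.23 and 0.14 on every array, whereas PIN replicate 4 is the only array with an epithelial median above 0 (0.74) and has the highest stress response median (0.68).

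Among genes that act next to these families, calls were read against the 5.64% of all genes that passed. None of 20 other translation and synthetase genes passed, among them release factors, poly(A)-binding proteins and subunits of the multi-synthetase complex; their median difference was -0.09. Gcn1, the coactivator of GCN2, was the only one with an unadjusted p under 0.05, at -0.53 ± 0.19 (adjusted p = 0.191 from limma), with all invasive values, -0.47 to -0.07, below the PIN values of 0.14, 0.56 and -0.02. None of 6 mitochondrial translation factors passed with limma, and 0 had an unadjusted p under 0.05.

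Of 14 measured genes listed for the mTOR and MNK pathways, which signal to eIF4E and to the 4E-binding proteins, 1 passed, near that share. The list also held Pdk1, whose symbol in the mouse is that of a pyruvate dehydrogenase kinase outside these pathways. Rptor, the scaffold raptor of mTOR complex 1, rose by 1.27 ± 0.26 (adjusted p = 0.0469 from limma), from -0.09, -0.03 and 0.19 in PIN stroma to 0.65, 1.25 and 2.06 in invasive stroma, with no overlap; the call was lost without PIN replicate 2 (adjusted p = 0.199 from limma) or PIN replicate 3 (adjusted p = 0.171 from limma), and with equal variances (adjusted p = 0.177). Mtor itself differed by -0.25 ± 0.27 and Akt1s1, another subunit of that complex, by -0.45 ± 0.34. In the integrated stress response 1 of 16 genes passed, also near that share: Cebpg, a C/EBP partner of ATF4. It rose by 0.67 ± 0.19 (adjusted p = 0.120 from limma), from -0.11, -0.15 and 0.33 to 0.44, 0.68 and 0.96, and its call was lost on leaving out any of 6 arrays, invasive replicates 2, 4, 5 and 6 and PIN replicates 2 and 3, where the adjusted p from limma was 0.163 to 0.375. It was also lost by a t-test per gene, either with unequal variances (Welch's t-test, adjusted p = 0.296) or with equal variances (0.177). The paper names a two-sample t-test and does not say which of these forms it used. Scaling between arrays (adjusted p = 0.159 from limma) and quantile normalization (0.171) lost the Cebpg call as well. Atf4 differed by 0.06 ± 0.21 and Asns by 0.27 ± 0.41, with all 3 PIN arrays of Asns outside its invasive range of -0.49 to 0.44.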

How the data were processed

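Per the labels and methods, the authors extracted RNA from laser-microdissected stroma, amplified it linearly in 2 rounds and hybridized it to spotted mouse cDNA clones; each deposited value is the log2 ratio of a Cy5-labelled sample to the Cy3-labelled PIN pool, after lowess within print-tip groups and without subtracting background. Dyes were never swapped, so a dye effect on a clone is shared by both groups. Spot intensities were not used, so dim clones were kept. Of 17664 rows, 457 held no value, 12563 carried 1 symbol, 412 several and 4689 none; rows with several or none entered only the fit over clones. Genes measured on 4 or more invasive arrays and 2 or more PIN arrays were fitted with limma 3.58.1 in R 4.3.3 (lmFit, eBayes, two-sided, Benjamini-Hochberg over all genes, passing at 0.15); every adjusted p is limma's unless another test is named. Errors after ± are standard errors of the difference. Members and gene lists were chosen with earlier results of these data known. Genes named were, per role, those passing and the 2 of lowest p, the 3 largest differences each way, members whose clones differed by over 1, and others said to be picked afterwards or given for their role. The fit was tested on simulated data. Summaries and plots used Python 3.11.15, pandas 2.3.3, numpy 2.4.6 and matplotlib 3.10.9. The number of arrays limits the precision. The promoter stretch of 1 synthetase gene with the searched core is not reported here.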

Additional observations from a re-analysis of the deposited data

Results flagged for a closer look

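In 2 of the 25 groups of invasive arrays checked, 1 array lay far from the other 5 by Dixon's criterion, which chance alone meets in about 1 of 20 groups. For Ears2 it was invasive replicate 5, at 0.0484, above the other invasive arrays. For Eif2ak1 it was invasive replicate 6, at -0.3249, below the others.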

How the results depend on the processing

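The limits are the 3 PIN arrays, of which replicate 4 stands apart, the change of age with stage, and the absence of spot intensities. Invasive replicate 3 also differed from the other invasive arrays in its marker medians. The sign held in every alternative for 21 of the 23 genes named by rule; Eif2ak4 turned from -0.25 to 0.016 without PIN replicate 3 (range over the arrays left out, -0.43 to 0.016), and Eif4ebp1 from 0.24 to -0.16 with the replicate block. Shared replicate numbers did not pair the samples (correlations of deviations -0.086, -0.100 and -0.019); with the number as a block, factors called lower went from 1 to 0 and member clones called lower from 1 to 0, and Cebpg lost its call (adjusted p = 0.315 from limma). Factors called lower were also 0 with equal variances or at an adjusted p under 0.05, and 0 to 1 on leaving out an array. Member clones called lower were 0 by Welch's t-test, with equal variances or at 0.05, and 0 to 2 on leaving out an array. Array weights, which raised the genes called from 457 to 1685, gave 2 factors higher and 3 lower, 3 synthetases lower, and 4 member clones higher and 6 lower, where the main counts were 0, 1, 0, 0 and 1. Leaving out an array gave 0 to 1 synthetases lower (Kars, without invasive replicate 3) and 0 to 1 clones higher. The median of the synthetases, -0.14, was -0.040 with array weights and between -0.15 and -0.033 on leaving out an array. The cause of these changes was not tested. Genes called over the whole array were 207 by Welch's t-test, 54 with equal variances, 90 with the block, and 37, 91 and 400 without PIN replicates 2, 3 and 4. They were 896 without invasive replicate 3 and 201 to 529 on leaving out any other invasive array.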
